A study of Drosophila melanogaster with 8 samples.

Results

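The genes described here are neuronal identity and axon adhesion genes of Drosophila melanogaster: elav, repo, Nrg, Nrx-IV, Fas1, Fas2, Fas3, robo1, fra and CadN. They were chosen by name, with earlier results of these data known. A gene counted as measured when at least 1 spot was paired with that gene alone. Of the 10 names, 8 had such a spot, out of 10398 genes in all, and Fas2 and Fas3 are not analysed here. Nrg was read by 2 spots and each of the other 7 by 1. The series compared larvae with adults of the wild-type strain Canton S on 8 spotted arrays, with larval RNA in channel 1 and adult RNA in channel 2 on 4 arrays (replicates 1, 3, 6 and 8) and the channels exchanged on the other 4 (replicates 2, 4, 5 and 7). Both RNA sources were stage mixes, and the labels give no sex, age or tissue. Every array used its own portion of one TRIzol homogenate, extracted and labelled separately, because the submitters set out to measure technical error. The p-values below therefore measure only the spread between arrays, which is technical, and not the spread between animals.

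A neuron is recognised in the fly by the RNA-binding protein Elav, which is kept in the nucleus and governs splicing and 3′ end choice of neuronal transcripts, while most glia carry the homeodomain factor Repo. Growing axons read cues through receptors such as Robo1, which binds the repellent Slit, and Frazzled (fra), the fly DCC protein, which binds Netrins. Axons hold together and choose partners through adhesion proteins: the immunoglobulin protein Neuroglian (Nrg), the cadherin CadN and the lipid-anchored Fasciclin 1 (Fas1). Neuroglian and Neurexin-IV (Nrx-IV) also build septate junctions, the barrier junctions of insect epithelia and of the glia that seal the nervous system, so they are not confined to neurons.

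Each spot gave a log2 ratio of the 2 channels. Arrays were centred on the median of their single-gene spots, and ratios from arrays with adults in channel 1 were then multiplied by -1. The outcome is called the turned ratio. Its positive side is the larval side if the authors divided channel 1 by channel 2, and the adult side if they divided the other way. No label or header states the direction of that division, so results are given by side, with no stage attached. A ratio from mixed tissue cannot tell fewer cells of a type from less RNA per cell, and it gives no level of a gene in either stage.

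Of the 8 measured genes, 6 had positive ratios past the limma threshold of an adjusted p of 0.05 and 0 had negative ones, while CadN and repo did not pass it. Among all 10398 genes 57.1% passed, 29.3% with positive and 27.8% with negative ratios. The same 6 genes were positive on all 8 arrays, as were 22.4% of all genes. The median turned ratio of the 8 genes was 0.66, and that of all genes was -0.01. The 2 with the largest ratios, Nrx-IV and Nrg, encode septate junction proteins.

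**Figure D1:**
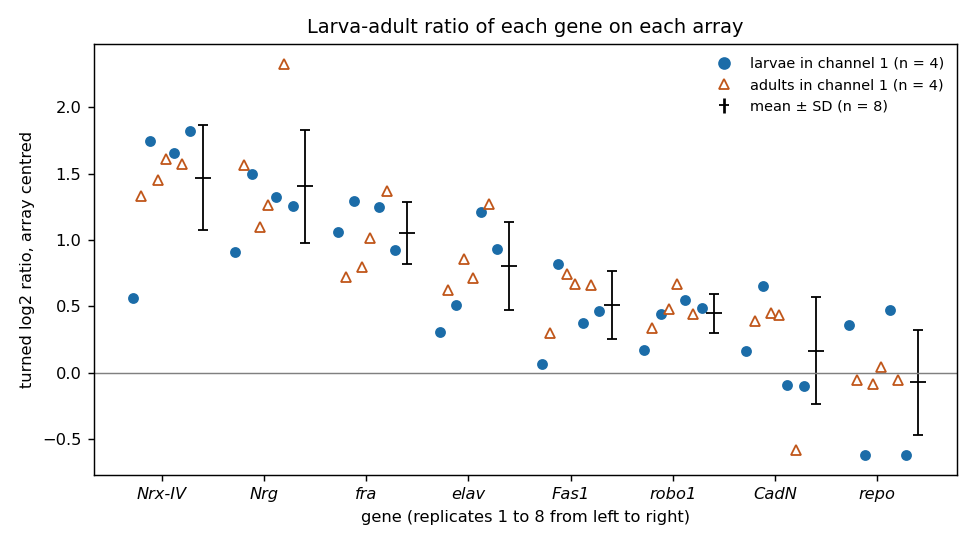
Turned log2 ratio (vertical axis) of each of the 8 measured genes (horizontal axis) on each array, replicates 1 to 8 from left to right within a gene. Filled circles are arrays with larvae in channel 1, open triangles arrays with adults in channel 1, and the bar is the mean ± SD over 8 arrays. Nrx-IV, Nrg, fra, elav, Fas1 and robo1 lie above 0 on every array, and CadN and repo lie on both sides of it.

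The first question is how the genes that mark neurons and glia differed between the stages. The elav spot stood on the positive side on every array. With larvae in channel 1 its turned ratios were 0.31, 0.51, 1.21 and 0.94 in replicates 1, 3, 6 and 8, and with adults in channel 1 they were 0.62, 0.86, 0.72 and 1.27 in replicates 2, 4, 5 and 7. The low values were those of replicates 1 and 3 and the high ones those of replicates 6 and 7, and the orientations overlapped. The mean was 0.80 ± 0.33 (SD, n = 8), a difference of 1.75-fold with a 95% interval of 1.47 to 2.08, and limma gave an adjusted p of 0.000163.

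The glial gene repo did not leave 0. Its turned ratios were 0.36, -0.62, 0.47 and -0.62 in replicates 1, 3, 6 and 8, and -0.05, -0.08, 0.04 and -0.05 in replicates 2, 4, 5 and 7. The arrays with larvae in channel 1 spread far to both sides, with an SD of 0.60 (n = 4), and those with adults in channel 1 stayed near 0, with an SD of 0.054 (n = 4). The mean was -0.07 ± 0.40 (SD, n = 8), the 95% interval of the ratio ran from -0.36 to 0.22, and the limma adjusted p was 0.669. The repo spot was dim, at percentile 2.71 of all genes by brightness, and brightness was computed here as a lower bound.

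The within-array difference of elav and repo does not depend on how arrays are centred. It averaged 0.87 ± 0.49 (SD, n = 8), elav was the higher on 7 of 8 arrays, and replicate 1 was the exception at -0.048. An exact two-sided permutation test of the signs gave p = 0.0156, or 0.0234 after Benjamini-Hochberg adjustment over the 3 pairs compared. The smallest p that 8 arrays allow is 0.00781.

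The second question concerns the septate junction and axon adhesion proteins Nrx-IV and Nrg. Nrx-IV, a transmembrane protein of the neurexin and Caspr family, had the largest ratio of the 8 genes. Its turned ratios were 0.56, 1.75, 1.66 and 1.82 in replicates 1, 3, 6 and 8, and 1.33, 1.45, 1.61 and 1.57 in replicates 2, 4, 5 and 7. Replicate 1 was low and the other 7 arrays lay between 1.33 and 1.82. The mean was 1.47 ± 0.40 (SD, n = 8), or 2.77-fold with a 95% interval of 2.27 to 3.38, and the limma adjusted p was 4.99e-06.

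Neuroglian is the fly protein of the L1 adhesion family and comes in a neuronal and a more widespread form that differ at the cytoplasmic end. The files do not state which transcripts the spots read. The mean of the Nrg spots was 0.91, 1.495, 1.32 and 1.25 in replicates 1, 3, 6 and 8, and 1.56, 1.10, 1.26 and 2.33 in replicates 2, 4, 5 and 7. Replicate 7 stood above all others, and the orientations overlapped. The mean was 1.40 ± 0.43 (SD, n = 8), or 2.65-fold with a 95% interval of 2.17 to 3.23, and the limma adjusted p was 6.60e-06.

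Both Nrg spots were positive on all 8 arrays. The first averaged 1.46 ± 0.42 and ranged from 0.79 to 2.02, and the second averaged 1.35 ± 0.58 and ranged from 0.76 to 2.64 (SD, n = 8). Their difference averaged 0.11 ± 0.54, with the first spot higher on 4 of 8 arrays, so the spots did not differ beyond their spread. The first spot was at percentile 60.1 of spots by brightness and the second at 36.4.

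Nrg and Nrx-IV were close to each other. Nrg minus Nrx-IV averaged -0.06 ± 0.46 (SD, n = 8), ranged from -0.57 to 0.76, and was positive on 3 of 8 arrays. The exact permutation test of signs gave p = 0.695, also 0.695 after adjustment over the 3 pairs. This does not show that the ratios were equal, since single arrays differed by up to 0.76 on the log2 scale.

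The third question concerns the guidance receptors. The fra spot had turned ratios of 1.06, 1.29, 1.25 and 0.93 in replicates 1, 3, 6 and 8, and of 0.72, 0.80, 1.02 and 1.37 in replicates 2, 4, 5 and 7. No array stood apart, and the highest and the lowest value both came from arrays with adults in channel 1. The mean was 1.05 ± 0.23 (SD, n = 8), or 2.08-fold with a 95% interval of 1.80 to 2.39, and the limma adjusted p was 4.78e-06.

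For robo1 the values were smaller and tighter. They were 0.17, 0.44, 0.55 and 0.49 in replicates 1, 3, 6 and 8, and 0.34, 0.48, 0.67 and 0.44 in replicates 2, 4, 5 and 7. Replicate 1 was again the lowest. The mean was 0.45 ± 0.15 (SD, n = 8), or 1.36-fold with a 95% interval of 1.21 to 1.54, and the limma adjusted p was 0.000842.

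The receptors differed from each other on every array. Robo1 minus fra averaged -0.61 ± 0.26 (SD, n = 8), ranged from -0.93 to -0.31, and robo1 was the higher on 0 of 8 arrays. The exact permutation test of signs gave p = 0.00781, the smallest it can give here, and 0.0234 after adjustment over the 3 pairs. Of the 6 pairs planned, the 3 with Fas2 or Fas3 were not analysed here.

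The remaining adhesion genes were Fas1 and CadN. Fas1 encodes a protein held at the cell surface by a lipid anchor and found on subsets of axon bundles. Its turned ratios were 0.070, 0.82, 0.38 and 0.46 in replicates 1, 3, 6 and 8, and 0.30, 0.74, 0.67 and 0.66 in replicates 2, 4, 5 and 7. Replicate 1 was close to 0, and replicate 3 was the highest. The mean was 0.51 ± 0.26 (SD, n = 8), or 1.43-fold with a 95% interval of 1.23 to 1.66, and the limma adjusted p was 0.00115.

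CadN, the classical cadherin of fly neurons, was not called. Its turned ratios were 0.17, 0.65, -0.09 and -0.10 in replicates 1, 3, 6 and 8, and 0.39, 0.45, 0.44 and -0.58 in replicates 2, 4, 5 and 7. Replicates 1 to 5 were positive and replicates 6, 7 and 8 negative. The mean was 0.17 ± 0.40 (SD, n = 8), with a 95% interval of the ratio from -0.13 to 0.46, and the limma adjusted p was 0.304. Without replicate 7 the ratio was 0.29 with an adjusted p of 0.0234, so that 1 array decides this call.

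In order of the turned ratio the genes ran Nrx-IV, Nrg, fra, elav, Fas1, robo1, CadN and repo. No step between neighbours in this order was larger than the SD of the within-array difference over 8 arrays. The steps were 0.06 ± 0.46 from Nrx-IV to Nrg, 0.35 ± 0.37 from Nrg to fra, 0.25 ± 0.34 from fra to elav and 0.29 ± 0.36 from elav to Fas1. They went on with 0.07 ± 0.20 from Fas1 to robo1, 0.28 ± 0.43 from robo1 to CadN and 0.24 ± 0.62 from CadN to repo. Nrg was above fra on 7 of 8 arrays and elav above Fas1 on 7 of 8, whereas Fas1 was above robo1 on 4. The SD describes single arrays and not the mean of 8, and of these steps only that from Nrx-IV to Nrg was tested. The order of neighbours is thus known only roughly. The distances from fra to robo1 and from elav to repo were larger than their spread.

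Against all genes, Nrx-IV stood at percentile 97.3 of the turned ratio and Nrg at 97.0. The fra gene was at percentile 94.3, elav at 90.4, Fas1 at 82.0 and robo1 at 79.8. CadN, at 63.8, and repo, at 44.8, were in the middle of the distribution.

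**Figure D2:**
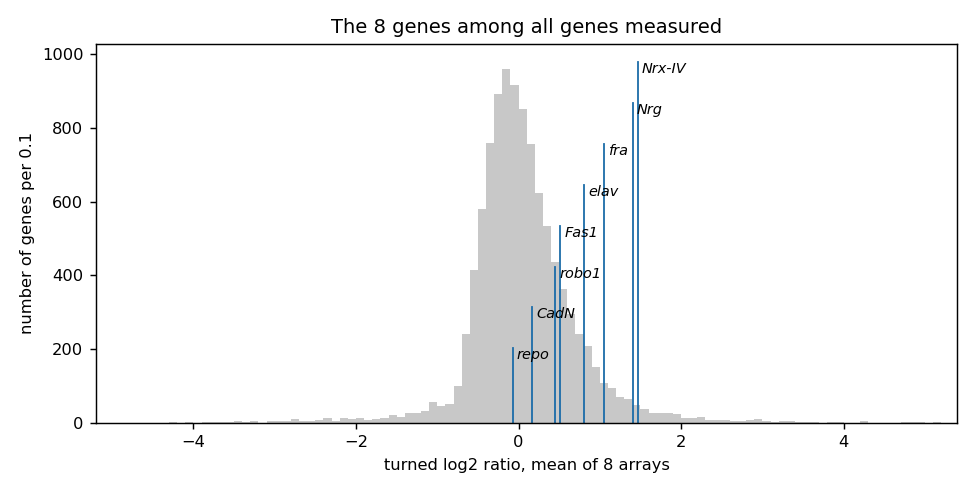
Histogram of the turned log2 ratio (horizontal axis, mean of 8 arrays) of all 10398 genes, with the number of genes per bin of 0.1 on the vertical axis. Vertical lines mark the 8 genes, and their heights carry no value: repo at -0.07 lies near the peak and Nrx-IV at 1.47 in the upper tail.

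The centring decides where 0 lies, and it bears on the smaller ratios. As deposited, without centring, the median gene stood at -0.45, and with arrays centred on all 20000 spots at -0.15. Nrx-IV, Nrg, fra and elav passed the threshold on the positive side under all 3 centrings, at 1.03, 0.97, 0.62 and 0.37 as deposited. Fas1 (0.08, limma adjusted p = 0.670) and robo1 (0.01, adjusted p = 0.948) did not pass as deposited. In the same values repo passed on the negative side (-0.51, adjusted p = 0.0255) and CadN stood at -0.27 (adjusted p = 0.246). Over all genes the positive side held 51.3% of the calls with the main centring, 35.7% with arrays centred on all spots and 14.7% as deposited.

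**Figure D3:**
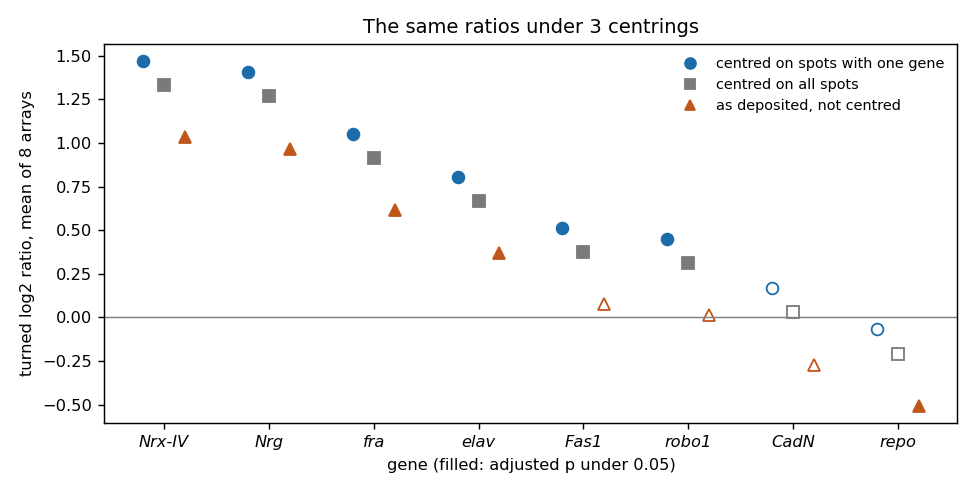
Turned log2 ratio (vertical axis, mean of 8 arrays) of the 8 genes (horizontal axis) with arrays centred on spots with 1 gene (circles), centred on all spots (squares) and as deposited (triangles). Filled symbols passed an adjusted p of 0.05, and every gene moves down by the same steps, so that Fas1 and robo1 reach 0 as deposited and repo reaches -0.51.

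The uncentred values show the exchange of channels directly. As deposited, before any sign was turned, Nrg stood at 0.67, 1.05, 0.73 and 0.24 in replicates 1, 3, 6 and 8 and at -1.23, -1.15, -1.17 and -1.52 in replicates 2, 4, 5 and 7. All 4 arrays of one orientation were positive and all 4 of the other negative. For robo1 the deposited values were -0.07, -0.01, -0.04 and -0.53 against -0.01, -0.54, -0.57 and 0.37, and the orientations overlapped.

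Because the study was set up to measure technical error, the spread of each gene is itself a result. The residual SD between arrays, after stage and dye were fitted, was 0.15 for robo1, 0.24 for fra, 0.26 for Fas1, 0.35 for elav, 0.42 for Nrg, 0.43 for repo, 0.43 for Nrx-IV and 0.44 for CadN, on the log2 scale. The Nrg value was that of the mean of its 2 spots, which singly had 0.43 and 0.58. The median of all genes was 0.30. The robo1 spot was thus among the most repeatable of the array, at percentile 7.53 of the residual SD, and CadN among the less repeatable, at 80.8. Brightness did not order the genes by spread: Nrx-IV, at percentile 84.9 of brightness, had a residual SD close to that of repo at percentile 2.71. The Nrx-IV value includes the low replicate 1, at 0.56, while its other arrays lay between 1.33 and 1.82. At like brightness, percentiles 43.7 and 44.6, fra and CadN had residual SDs of 0.24 and 0.44.

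**Figure D4:**
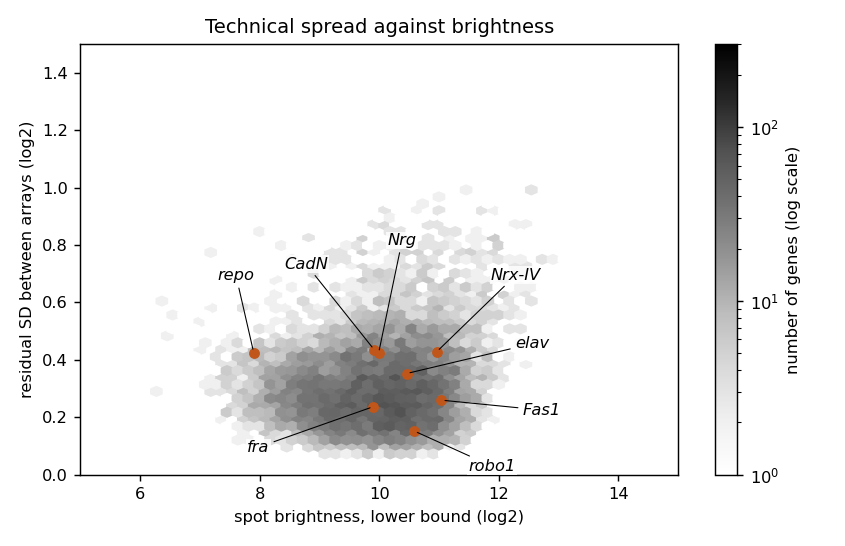
Residual SD between arrays (vertical axis, log2) against spot brightness (horizontal axis, log2, a lower bound) for all genes as grey hexagons whose shade gives the number of genes on a log scale. The 8 genes are labelled: robo1 has the smallest residual SD, 0.15, and repo the lowest brightness.

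Arrays themselves differed in spread. The median absolute deviation of the centred ratios ran from 0.30 in replicate 1 to 0.94 in replicate 7. Replicate 1 gave the lowest value for 5 of the 8 genes and the highest for 0, and replicate 7 gave the highest for 3. The part of this spread in the single values above was not tested, but with arrays scaled to one spread Nrx-IV stood at 1.45, Nrg at 1.39, fra at 1.07, elav at 0.77, Fas1 at 0.48 and robo1 at 0.45, all past the threshold.

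In the main fit, no dye difference passed the threshold in these genes. The limma dye coefficient was between 0.0086 and 0.16 in size, largest for Nrg, and 0 of the 8 genes passed the threshold (adjusted p from 0.917 to 0.997) or had an unadjusted p under 0.05. Among all genes 0 of 10398 passed, 467 had an unadjusted p under 0.05, and 1181 passed when limma weighted the arrays. Whether any of the 8 genes was among those 1181 was not counted. The weights ran from 0.145 in replicate 7 to 8.03 in replicate 5.

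Related genes were counted in 11 lists written by function, with earlier results of these data known. The counts describe these data and are not independent support. The counts of every list stand against the shares of all genes called positive and negative. These were 29.3% and 27.8% with the main centring, 19.2% and 34.6% centred on all spots, and 9.80% and 56.7% as deposited. They were 29.2% and 32.4% after loess normalization. With single replicates left out, the positive share ran from 26.3% to 30.3% and the negative share from 23.6% to 28.8%. Leaving out the centring lowered every ratio by the same amount, 0.44 on the log2 scale. Septate junction genes other than Nrg and Nrx-IV gave 12 positive and 0 negative calls among 15 measured, with 10 and 0 centred on all spots and 6 and 1 as deposited. Their median turned ratio was 0.63, and 3 did not pass the threshold. Lachesin (Lac), an immunoglobulin protein of the junction, ranged from 1.63 to 2.51 over the arrays with a median of 1.89 and a mean of 1.94 ± 0.33. Contactin (Cont), which forms a complex with Neuroglian and Neurexin-IV, ranged from 1.29 to 2.39 with a median of 1.73 and a mean of 1.76 ± 0.34. Varicose (vari), a scaffold protein that binds the Neurexin-IV tail, averaged 1.09 ± 0.30 (SD, n = 8 for each). All 3 were positive on all 8 arrays, with limma adjusted p values of 2.28e-07, 6.13e-07 and 1.15e-05. Coracle (cora), another protein that binds the Neurexin-IV tail and was named for that role after its value was seen, stood at 0.57 ± 0.32 with an adjusted p of 0.00151.

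Guidance ligands and receptors split into 16 positive calls, 2 negative calls and 7 without a call among 25 measured members; their median was 0.36. Centred on all spots these were 9 and 3, and as deposited 7 and 7, and without replicate 6 or 8 the negative count was 1. With the spot of smallest residual SD the counts were 13 and 3 and the median 0.25, against 28.5% and 28.1% of all genes. Some calls averaged spots that disagreed, such as those of Ptp10D at -0.31 and 0.93. The largest ratios were those of the receptor kinase Eph (1.65 ± 0.50), its ligand Ephrin (1.497 ± 0.49) and the semaphorin receptor PlexB (1.32 ± 0.37). Each was positive on all 8 arrays, with limma adjusted p values of 7.16e-06, 8.27e-06 and 7.63e-06. The partners of Robo1 and Frazzled were named for their role after their values were seen. Slit (sli), the Robo1 ligand, stood at 0.94 ± 0.33 with an adjusted p of 2.82e-05, and both of its spots were close, at 0.91 and 0.96. Netrin-B (NetB), a Frazzled ligand, stood at 0.80 ± 0.32 with an adjusted p of 0.000111. The repulsive Netrin receptor gene unc-5 averaged 0.15 ± 0.22 and did not pass (adjusted p = 0.179), and 1 of its 2 spots was at -0.21 and the other at 0.52. Commissureless (comm), which keeps Robo1 off the axon surface, stood at 0.36 ± 0.24 with an adjusted p of 0.00759 (SD, n = 8 for each).

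Of the neuronal genes beside elav, 9 of 15 measured were called positive and 1 negative, and 5 had no call. The median was 0.48. Centred on all spots the counts were 7 and 1, and as deposited 5 and 3. Synapsin (Syn), a protein of synaptic vesicles, averaged 1.76 ± 0.64 and ranged from 0.53 to 2.39. The homeodomain gene onecut averaged 1.12 ± 0.43, and couch potato (cpo), an RNA-binding protein of the peripheral nervous system, 1.09 ± 0.54 (SD, n = 8 for each). The limma adjusted p values were 1.95e-05, 1.72e-05 and 0.000203. The 3 cpo spots ran from 0.64 to 1.33, and its ratio was 0.69 after loess normalization against brightness. The close relatives of elav, named for that role after their values were seen, were also positive on all 8 arrays. Rbp9 stood at 0.92 ± 0.24, though its 3 spots ran from -0.19 to 1.49, and fne at 0.48 ± 0.31. ChAT, which makes acetylcholine, was the member on the negative side at -0.40 ± 0.34 (adjusted p = 0.0108).

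Glial genes other than repo gave 10 positive calls among 17 measured, 2 negative calls and 5 without a call. The median was 0.22. Centred on all spots the counts were 6 and 2, and as deposited 4 and 6. The negative count was 1 without replicate 6 or 8 and 4 without replicate 7. Of 6 measured genes in a shorter glial marker set (repo, gcm, moody, Gs2, loco and wrapper), 2 were called positive and 1 negative. Their median was 0.02, and the shares of all genes were 29.3% and 27.8%. The GABA transporter gene Gat averaged 1.34 ± 0.34, the astrocyte gene alrm 1.14 ± 0.21 and gliotactin (Gli), which sits at tricellular junctions and was listed with both glia and junctions, 1.03 ± 0.30. All 3 were positive on all 8 arrays, with limma adjusted p values of 3.36e-06, 1.59e-06 and 1.80e-05. The members on the negative side were gcm and gcm2, the transcription factor genes that start glial fate and switch on repo, at -0.35 ± 0.28 and -0.36 ± 0.36 (SD, n = 8 for each; limma adjusted p = 0.00921 and 0.0246).

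Neuroblast and proneural genes, which make and divide the precursors of neurons, gave 3 positive and 7 negative calls among 13 measured, and 3 had no call. The median was -0.26. Centred on all spots the counts were 1 and 8, as deposited 1 and 8, and the positive count was 1 without replicate 6 or 8. The homeodomain gene prospero (pros) averaged 1.19 ± 0.42 and was positive on all 8 arrays (limma adjusted p = 2.62e-05). The snail family gene worniu (wor) averaged -0.60 ± 0.39 and the growth regulator brat -0.36 ± 0.22, both negative on all 8 arrays (adjusted p = 0.00198 and 0.00398).

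Other cell adhesion genes gave 16 positive and 5 negative calls among 32 measured, and 11 had no call. The median was 0.27. Centred on all spots the counts were 11 and 8 and as deposited 7 and 11, and the negative count was 3 without replicate 3 or 6 and 2 without replicate 8. The integrin beta gene mys averaged 1.32 ± 0.38, the epithelial cadherin gene shg, a dim spot, 1.22 ± 0.79 and the adhesion gene neurotactin (Nrt) 1.07 ± 0.49, with limma adjusted p values of 7.48e-06, 0.00114 and 0.000173. CadN2, the paralog of CadN, was named for that role after its value was seen. It stood on the negative side at -0.31 ± 0.27 (adjusted p = 0.0236), against 0.17 ± 0.40 for CadN (SD, n = 8 for each). The difference was not tested. Of 3 cadherin partners listed, p120ctn was the 1 measured, at 0.77 ± 0.30 (adjusted p = 7.68e-05), but its 2 spots disagreed, at 0.03 and 1.51. Signalling genes of the growth cone gave 5 positive calls and 1 negative call among 9 measured, 1 and 1 centred on all spots and 0 and 3 as deposited. Profilin (chic), Nedd4 and Pak had the largest ratios, at 0.56 ± 0.50, 0.51 ± 0.31 and 0.45 ± 0.27 (adjusted p = 0.00846, 0.00274 and 0.00216), and none of the 3 passed as deposited, nor did Nedd4 (0.37, adjusted p = 0.0582) and Pak (0.31, adjusted p = 0.0513) centred on all spots.

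**Figure D5:**
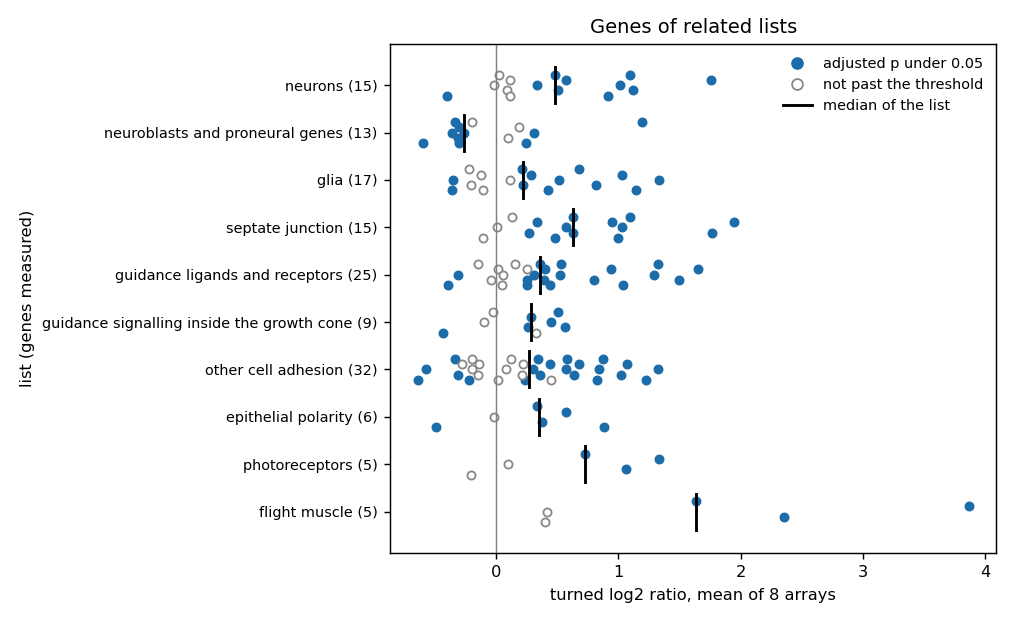
Turned log2 ratio (horizontal axis, mean of 8 arrays) of the measured genes of 10 lists (vertical axis, with the number measured; the list with 1 measured gene is left out). Filled points passed a limma adjusted p of 0.05, and the black bar is the list's median: septate junction genes lie almost wholly to the right of 0, with a median of 0.63, and the neuroblast list has its median at -0.26.

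Markers of epithelium, photoreceptors and flight muscle were counted too, and each list held positive calls and genes without a call. Of 6 measured epithelial polarity genes 4 were called positive and 1 negative (2 and 1 centred on all spots, 1 and 2 as deposited). The median was 0.36. Crumbs (crb) stood at 0.89 ± 0.38, yrt at 0.57 ± 0.32 and aPKC at -0.49 ± 0.40. As deposited yrt did not pass (0.14, limma adjusted p = 0.463). Of 5 measured photoreceptor genes 3 were called positive and 0 negative (3 and 1 centred on all spots, 2 and 1 as deposited). The median was 0.73. Chaoptin (chp) stood at 1.33 ± 0.41, the channel gene trp at 1.06 ± 0.37 and arrestin 2 (Arr2) at 0.73 ± 0.35. As deposited Arr2 did not pass (0.29, limma adjusted p = 0.152). Of 5 measured flight muscle genes 3 were called positive and 0 negative, with the same counts under both other centrings and 3 and 1 after loess normalization. The median was 1.64, and 0.46 after loess. TpnC4 stood at 3.87 ± 0.50, fln at 2.35 ± 0.68 and Act88F at 1.64 ± 0.80 (SD, n = 8 for each). After loess Act88F, whose spot was at percentile 99.995 of brightness, stood at 0.46 (limma adjusted p = 0.0238). The part of epithelium, eye or muscle in the ratios of Nrx-IV, Nrg, elav and the others was not tested.

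The genes with the most similar values over the 8 arrays were found by Euclidean distance of the turned ratios. For elav these were CG2528 at a distance of 0.36, Pos at 0.38 and ADD1 at 0.41, with mean ratios of 0.72, 0.89 and 0.77. For Nrx-IV they were Plp at 0.36, Pdcd4 at 0.57 and CG14062 at 0.58, with mean ratios of 1.49, 1.54 and 1.595. None of these is on the lists above, and since all arrays share one pair of RNA sources, this likeness covers 1 comparison and the arrays' own spread.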

How the data were processed

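The authors deposited 1 value per spot and array, a log2 ratio of the 2 channels. Per the labels, polyA RNA was amino-allyl labelled, arrays were scanned with GenePix and spots quantified with Spot version 2.0. No source used here states the dyes, background handling, spot filters or numerator. The unit was read from the values: on every array 100% of the 20000 spots equalled log2 of one whole number over another (relative tolerance 1e-13), and at most 1.335% met this with base 10. The mean log2 of these numbers, as the median over arrays, is the brightness.

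The probe table paired 12246 spots with 1 gene, 86 with several and left 7668 unnamed; symbols were updated through the RefSeq gene table of assembly Release 6 plus ISO1 MT. Spots of a gene were averaged, giving 10398 genes. One limma fit covered all genes (limma 3.58.1, R 4.3.3; intercept for the turned ratio and a dye column, eBayes, Benjamini-Hochberg adjustment over all genes). In simulated data of 10398 genes with means set to 0, 100 genes were shifted by 0.5 (log2) and 100 by 1. Of these, 58% and 91% were recovered. In the real data 57.1% of genes were called, so these rates do not describe it directly. Pairs were compared by exact sign permutation. Other steps used pandas 2.3.3 and numpy 2.4.6 under Python 3.11.15, and figures matplotlib 3.10.9. The number of arrays limits the precision. All 8 genes are described; of each list the 3 largest absolute ratios are named, and the 3 nearest genes of elav and of the gene with the largest ratio. The genes and lists were chosen with earlier results of these data known. Alternatives were 2 other centrings (on all spots, and none), no dye column, scaling, quantile and loess normalization, array weights, spot choice, a brightness filter and leaving out each array.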

Additional observations from a re-analysis of the deposited data

Results flagged for a closer look

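Values were flagged where one array lay apart from the rest by Dixon's test at 95%, over all 8 arrays or within an orientation of 4. Of 39 such sets of values 7 were flagged, and chance flags about 1 in 20. The sets overlap, since a value can enter over all arrays, within its orientation and as gene or spot. The 7 flags are therefore not independent, and their number cannot be weighed against that rate. Nrx-IV in replicate 1, at 0.56, was below every other array (next 1.33) and was flagged over all arrays and among the arrays with larvae in channel 1; without it the mean was 1.598. Nrg in replicate 7 was the highest of 8 arrays at 2.33, and its second spot the highest there at 2.64; without replicate 7 these means were 1.27 and 1.17. The second Nrg spot in replicate 6, at 1.51, was the highest among the arrays with larvae in channel 1. CadN in replicate 7, at -0.58, was the lowest of the arrays with adults in channel 1. The difference of robo1 and fra in replicate 7, at -0.93, was the lowest of the same arrays. Replicate 1 had the smallest and replicate 7 the largest spread of all ratios, with median absolute deviations of 0.30 and 0.94, and the part of this in the flagged values was not tested.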

How the results depend on the processing

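Nrx-IV, Nrg, fra and elav kept their side and their call under all 18 alternatives. As deposited, Fas1 fell to 0.077 (limma adjusted p = 0.670) and robo1 to 0.012 (0.948), repo passed at -0.51 (0.0255), giving 1 gene of the 8 on the negative side, and CadN changed sign to -0.27 (0.246). By the construction of that alternative, the centring was left out. CadN passed with array weights (0.23, adjusted p = 0.0141) and ranged from 0.083 to 0.29 with single replicates left out, passing without replicate 7. For repo that range was -0.17 to 0.017, changing sign without replicate 3 or 8, and for Nrg minus Nrx-IV it was -0.18 to 0.0071, changing sign without replicate 8. The cause was not tested. The differences of elav and repo and of robo1 and fra passed under every alternative run for pairs. These were arrays scaled to one spread, the spot of smallest residual SD, each array left out and a permutation of the channel orientations. Quantile and loess normalization, array weights, the median of spots and the brightness filter were not run for pairs. Over all genes the positive count of 3049 was 1998 centred on all spots and 1019 as deposited, where the negative count of 2892 was 5898. The repo spot was left out with the dimmest 20% of spots. With the spot of smallest residual SD, p120ctn stood at 0.035 and did not pass. Negative calls among glial genes numbered 4 with array weights, and among other adhesion genes 9 with array weights or loess. The shares of all genes called negative were 34.6% with array weights and 32.4% with loess, against 27.8% in the main fit. Every ratio pairs the stages within its array. Arrays could not be paired further across the 2 orientations, which share no replicate number that could serve as a block.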
